A study of Homo sapiens with 6 samples.

Results

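The genes described here are 44 human genes of the cell cycle and of DNA replication, taken as a list of gene names. A member was measured through every Ensembl transcript (ENST identifier) of its gene, with symbols from GENCODE release 44. All 44 genes had a transcript in at least 1 of the 5 count matrices, 189 of their 368 GENCODE transcripts were listed there, and 43 genes had a count in a human cell. The matrices as a whole held 46484 human transcript identifiers, of which 42740 were in GENCODE and belonged to 12472 gene names.

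The 6 samples were mixtures of cells labelled JJN3, a human myeloma line, and 5TGMG1, mouse cells that the study's text names 5TGM1, read by nanopore single-cell RNA sequencing, with 1 library in each group. The libraries were Drop-seq (barcoded beads in droplets, on the Nadia system) at 25, 30 and 35 PCR cycles with 1000, 500 and 500 labelled cells, and 10X Chromium at 30 and 35 cycles with 2000 labelled cells each. A further Drop-seq sample held read numbers only and was not used here. Treatment other than the cycle number was not labelled. As many barcodes as labelled cells were kept, ranked by their unique molecular identifiers (UMIs, short random tags that mark each captured molecule), and human cells were those with at least 90% of their counts on human transcripts.

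Values are given in the order of cycle number, 25, 30 and 35 for Drop-seq and 30 and 35 for 10X. There were 251, 166 and 165 human cells in Drop-seq against 1006 and 911 in 10X. Their median human count per cell lay between 117 and 344, and total counts per library ran from 494147 to 2311090. The smallest stored value was 1 at 25 cycles, 3 at 30 and 35 cycles of Drop-seq and 2 in 10X, so that an absent entry is not a measured 0. A gene is therefore written as listed at 0, and log2 ratios between platforms were taken with values below 3 left out. Other values are as deposited unless this limit is named, so levels of the 2 platforms set side by side rest on different smallest values. No replicate check was possible, and every interval is an exact 95% interval that covers counting error only.

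The label of the human cells was checked against markers before the member genes were read. In the 10X human cells all 10 plasma cell markers were listed, with 1082 and 877 counts in all at 30 and 35 cycles, while the 15 T cell markers had 4 and 2 counts. In the Drop-seq human cells the same plasma cell list had 15, 5 and 7 counts at 25, 30 and 35 cycles, all of them MZB1, and the defining genes SDC1, IRF4 and PRDM1 were listed at 0. T cell markers there had 353, 239 and 298 counts, led by CD3G, CD1E and TRBC1, with 10, 6 and 7 of the 15 listed. The markers of the Drop-seq human cells thus go against the myeloma label, and those of the 10X human cells fit it. Platform, library chemistry, cell mix and human cell type cannot be told apart in any comparison between Drop-seq and 10X. Human barcodes were also shared within a platform, 722 between the 10X libraries and 145, 135 and 133 between the Drop-seq pairs, and 0 between platforms at 30 and at 35 cycles, so libraries of a platform are no independent samples of cells.

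A dividing cell first licenses its replication origins by loading the MCM helicase, then copies its DNA in S phase with the help of the PCNA clamp and a raised supply of deoxynucleotides, and finally separates its chromosomes in mitosis. Cyclins and their kinases drive the steps in order, and the anaphase-promoting complex (APC/C) ends mitosis by marking cyclin B and securin for destruction. Many S phase genes are switched on by E2F factors at the boundary of G1 and S, and many mitotic genes are held back until G2 through a promoter element called CHR. Cell lines in culture cycle without synchrony, so only some of the cells carry transcripts of a given phase.

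Several members have a close relative in the list, and how well a read tells them apart depends on their sequence. The first 60 coding bases of both members are shown for 3 of 4 such pairs, from the canonical GENCODE transcript of each gene on hg38, in lower case with capitals where the relatives differ. The D cyclins CCND2 and CCND3 start their coding sequence at chr12:4274041-4274100 on the plus strand and chr6:41941590-41941649 on the minus strand, in exon 1 of each. They differed at 32 of 60 bases and were 68.6% identical over the whole aligned coding sequence, with no identical run longer than 15 bases.
CCND2: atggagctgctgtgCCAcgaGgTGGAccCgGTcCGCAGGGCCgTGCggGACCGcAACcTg
CCND3: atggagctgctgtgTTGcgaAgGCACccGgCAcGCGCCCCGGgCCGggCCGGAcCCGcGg

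The CDK subunits CKS1B (chr1:154974746-154977987, exons 1 and 2, plus strand) and CKS2 (chr9:89311293-89315170, exons 1 and 2, plus strand) differed at 16 of these bases and were 74.5% identical overall.
CKS1B: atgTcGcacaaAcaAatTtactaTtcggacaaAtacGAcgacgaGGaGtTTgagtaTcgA
CKS2: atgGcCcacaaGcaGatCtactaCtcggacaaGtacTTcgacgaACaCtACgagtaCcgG

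The alpha tubulins TUBA1B and TUBA1C were 96.9% identical over the aligned coding sequence and shared an unbroken run of 326 bases. Counts of TUBA1B and TUBA1C are therefore uncertain against each other.

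The beta tubulins TUBB (chr6:30720507-30722539, exons 1 and 2, plus strand) and TUBB4B (chr9:137241361-137241723, exons 1 and 2, plus strand) differed at 8 bases, with 84.4% identity and an identical run of at most 35 bases.
TUBB: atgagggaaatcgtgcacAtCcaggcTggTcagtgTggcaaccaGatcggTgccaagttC
TUBB4B: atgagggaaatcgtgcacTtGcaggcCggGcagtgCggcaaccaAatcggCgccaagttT

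The member genes together took 1868 of 115245 human counts in the human cells of the 25-cycle Drop-seq library, which is 1.62% (1.55 to 1.70). They took 823 counts or 1.23% (1.14 to 1.31) at 30 cycles and 1204 counts or 1.29% (1.22 to 1.36) at 35 cycles of Drop-seq. In 10X the share was 0.740% (0.699 to 0.783, 1199 counts) at 30 cycles and 0.910% (0.868 to 0.952, 1813 counts) at 35 cycles. Drop-seq shares were above both 10X shares, and their intervals did not overlap. Without STMN1, H2AZ1 and TUBA1B the shares at 30 cycles were 0.545% (0.491 to 0.604) in Drop-seq and 0.485% (0.452 to 0.520) in 10X, which overlapped. At 35 cycles they were 0.625% (0.575 to 0.677) and 0.454% (0.425 to 0.484), which did not overlap. The 25-cycle Drop-seq share was then 0.752% (0.703 to 0.804). With STMN1, H2AZ1 and CCND2 removed instead, the 30-cycle shares were 0.698% (0.637 to 0.764) in Drop-seq and 0.291% (0.265 to 0.318) in 10X. The 35-cycle shares were then 0.858% and 0.319%, and that of 25-cycle Drop-seq 0.968%. With values below 3 left out, the 3 Drop-seq shares of all members were 1.78%, 1.23% and 1.29%, and both 10X shares fell, to 0.672% and 0.628%. The order of the 10X libraries was then turned, and the intervals of 0.601 to 0.749 and 0.576 to 0.683 overlapped.

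A handful of genes carried most of these counts. The 3 leading members held 53.6%, 55.5% and 51.5% of the member counts in Drop-seq and, in 10X, 61.3% and 64.9%. The leading gene was STMN1 at 25 cycles, H2AZ1 at 30 and TUBA1B at 35 in Drop-seq, and in 10X it was CCND2 at 30 cycles and STMN1 at 35. At the other end, 12, 22 and 18 members were listed at 0 in the human cells of Drop-seq, as were 13 and 11 in those of 10X.

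**Figure D1:**
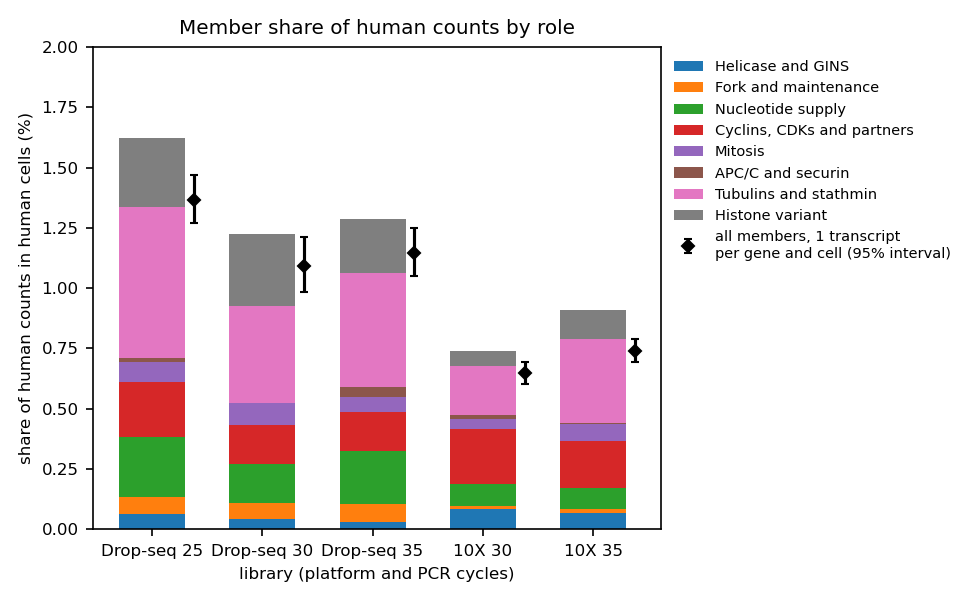
Stacked bars show the share of human counts in human cells (%, vertical axis) taken by the member genes in each of the 5 libraries, split by role, and black diamonds show the share of all members when only the largest transcript of a gene is counted in each cell, with 95% counting intervals. Tubulins and stathmin form the largest block except in the 30-cycle 10X library, and both 10X bars (0.740% and 0.910%) are lower than the Drop-seq bars.

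Transcripts of the same gene often carried the same value in every barcode that held them. The pair of PCNA transcripts ENST00000379143 and ENST00000379160 had identical counts in 183 barcodes at 25 cycles, and they share an unbroken run of 1232 of the 1276 bases of the shorter one. The H2AZ1 transcripts ENST00000296417 and ENST00000651623 were identical in 34 barcodes of the 30-cycle Drop-seq library and in 36 of the 30-cycle 10X library. In the same Drop-seq library the protein coding TUBA1B transcript ENST00000336023 and the retained-intron transcript ENST00000332858 were identical in 33 barcodes, so the 2 types of transcript cannot be told apart there. A molecule may thus be counted more than once in the sums, but which reads were assigned to which transcript was not analysed here.

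Counting only the largest transcript of each gene in each cell, an alternative added after these identities were seen, left 737, 359 and 522 member counts for Drop-seq, and for 10X 713 and 964. The summed member counts were 2.53, 2.29 and 2.31 times these values in Drop-seq, against 1.68 and 1.88 times in 10X. For all human genes the same factors were 2.13, 2.04, 2.05, 1.47 and 1.53. Member shares counted this way were 1.37%, 1.09% and 1.14% in Drop-seq, against 0.646% and 0.739% in 10X, which kept the Drop-seq libraries above the 10X libraries.

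Counted once per cell, CCND2 was the most counted member of both 10X libraries, with 345 and 341 counts against 98 and 206 of STMN1 and 50 and 114 of H2AZ1. CCND2 had a single listed transcript, so its count did not change, while the sums of STMN1 and H2AZ1 had been 277 and 106 at 30 cycles. H2AZ1 led in Drop-seq with 147, 93 and 93 counts, and TUBA1B, with 84, 36 and 74, stood above CKS1B, with 67, 34 and 37. Divided by the length of each gene's most counted transcript, the once-per-cell counts put CCND2 in 10X, with 53.1 and 52.5 per kilobase, behind STMN1 (67.9 and 142.8) and H2AZ1 (57.7 and 131.6). In Drop-seq H2AZ1 still led per kilobase, with 169.7, 107.4 and 107.4, ahead of STMN1 (92.2, 35.3 and 42.3) and CKS1B (73.5, 37.3 and 40.6). A UMI marks a captured molecule whatever its length, so the values per kilobase are no correction of the counts. Whether length affected the counts was not tested.

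**Figure D2:**
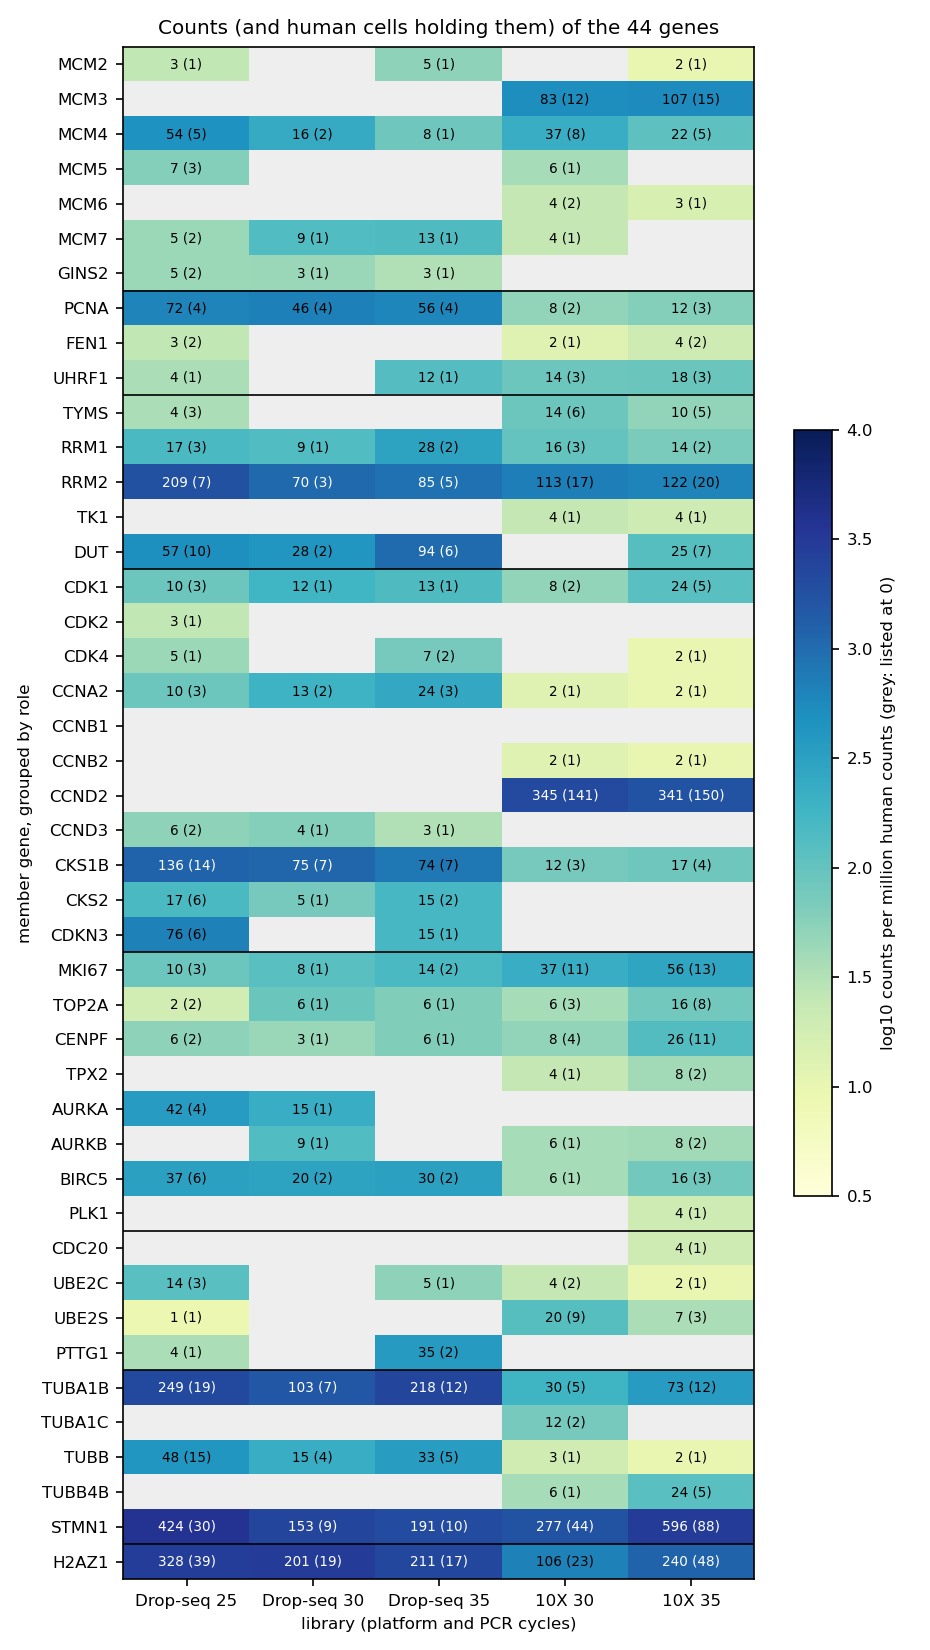
Each row is a member gene, grouped by role, and each column a library; the number is the summed UMI count in human cells with the number of human cells holding it in brackets, colour gives log10 CPM (counts scaled to the human total), and grey marks genes listed at 0. CCND2 and MCM3 are filled only in the 10X columns, CKS2 and CCND3 only in the Drop-seq columns, and CCNB1 in none.

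At least 1 member was held by 127 of 251 human cells (50.6%, 44.2 to 56.9) in Drop-seq at 25 cycles, 49 of 166 (29.5%, 22.7 to 37.1) at 30 cycles and 60 of 165 (36.4%, 29.0 to 44.2) at 35 cycles. In 10X it was 254 of 1006 (25.2%, 22.6 to 28.1) at 30 cycles and 336 of 911 (36.9%, 33.7 to 40.1) at 35 cycles. These shares rest on different smallest values and depths. After each cell was thinned to 100 human counts, which left out 352 human cells of the 30-cycle 10X library and 0 elsewhere, the shares were 43.0%, 25.9% and 34.5% in Drop-seq, against 24.8% and 32.4% in 10X. With values below 3 left out they were 20.7%, 29.5% and 36.4% in Drop-seq against 5.86% (4.49 to 7.50) and 8.45% (6.73 to 10.5) in 10X, so the 25-cycle library went from the highest to the lowest of the Drop-seq shares.

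Mouse cells, which should lack human transcripts, gave the background. A member count was found in 52 of 590 mouse cells (8.81%) at 25 cycles of Drop-seq, 2 of 291 (0.687%) at 30 and 4 of 309 (1.29%) at 35. In 10X it was 1 of 806 (0.124%) and 2 of 881 (0.227%). All human shares lay above these. At a limit of 3 for every library, 0 of 590 mouse cells at 25 cycles and 0 in both 10X libraries held a member, and the other Drop-seq libraries did not change. The median counts per mouse cell were 282.5, 278 and 417 in Drop-seq, against 117 and 171 in 10X, close to the 271, 243, 352, 118 and 171 of human cells. The members made up 1.05%, 1.42% and 1.22% of the human counts found in Drop-seq mouse cells, a share of the same order as in human cells, and 0.0928% and 0.124% in 10X mouse cells.

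Few cells held several members. Of the human cells, 16 of 251, 6 of 166 and 8 of 165 held 3 or more member genes in Drop-seq, and 7 of 1006 and 13 of 911 did so in 10X. The most member genes found in 1 cell was 6, 4 and 6 in Drop-seq, against 8 and 4 in 10X. Cells holding a member had more human counts, with medians of 334, 363 and 498.5 in Drop-seq against 227.5, 219 and 312 in cells holding none, and 153.5 and 203 in 10X against 110 and 157.

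Among the helicase genes, MCM2 to MCM7 form the ring that unwinds DNA, and GINS2 is a subunit of the GINS complex that activates it. MCM3 had 83 counts in 12 human cells of 10X at 30 cycles and 107 counts in 15 cells at 35 cycles. It was listed at 0 in the human cells of all 3 Drop-seq libraries, although other barcodes held 138 counts at 25 cycles, with 3 mouse cells among them. MCM4 was in all 5 libraries, with 54, 16 and 8 counts in Drop-seq, against 37 and 22 in 10X, in 8 cells at most. The other ring members were thin, and MCM2, MCM5, MCM6 and MCM7 had at most 13 counts in any library. GINS2 had 5, 3 and 3 counts in Drop-seq and was listed at 0 in 10X. The group as a whole took 0.0642%, 0.0417% and 0.0310% of human counts in Drop-seq, against 0.0827% and 0.0672% in 10X.

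At the fork, PCNA, the sliding clamp of the DNA polymerases, had 72, 46 and 56 counts in Drop-seq, each time in 4 human cells. In 10X it had 8 counts in 2 cells and 12 counts in 3 cells at 30 and 35 cycles. Its share of cells was 1.59% (0.436 to 4.03), 2.41% (0.660 to 6.05) and 2.42% (0.664 to 6.09) in Drop-seq against 0.199% (0.0241 to 0.716) and 0.329% (0.0680 to 0.959) in 10X, and the intervals of the 2 platforms overlapped. At a limit of 3, 4 cells still held it in each Drop-seq library, and it was listed at 0 in both 10X libraries. FEN1, the flap endonuclease of Okazaki fragments, had 4 counts at most. UHRF1, which helps to maintain DNA methylation after replication, had 4, 0 and 12 counts in Drop-seq, against 14 and 18 in 10X.

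Of the genes that supply deoxynucleotides, RRM2, the small subunit of ribonucleotide reductase, had 209, 70 and 85 counts in 7, 3 and 5 human cells of Drop-seq. In 10X it had 113 counts in 17 cells and 122 counts in 20 cells. RRM1, the large subunit, had 17, 9 and 28 counts in Drop-seq, against 16 and 14 in 10X. DUT, the dUTPase that keeps uracil out of DNA, had 57, 28 and 94 counts in 10, 2 and 6 cells in Drop-seq, was listed at 0 in 10X at 30 cycles and had 25 counts in 7 cells at 35 cycles. Its processed copy DUTP2 also had 2 and 5 counts in 10X, so DUT reads may be split between them. TYMS, thymidylate synthase, had 4, 0 and 0 counts in Drop-seq, against 14 and 10 in 10X. TK1, thymidine kinase, had 4 counts in 1 cell of each 10X library.

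Among cyclins and kinases, CCND2 stood out in 10X. This D-type cyclin, which opens the way from G1 into S phase with CDK4 or CDK6, had 345 counts in 141 human cells at 30 cycles and 341 counts in 150 cells at 35 cycles, or 14.0% (11.9 to 16.3) and 16.5% (14.1 to 19.0) of the cells. No human cell of the 3 Drop-seq libraries held it, and all its counts fell on ENST00000261254, a protein coding transcript of 5 exons and 6493 bases. CCND3, a second D-type cyclin, showed the opposite listing at a low level, with 6, 4 and 3 counts in Drop-seq and 0 in the human cells of 10X. CCND1, the third D-type cyclin and no member, had 4 and 2 counts in 10X and 0 in Drop-seq. CCND2 in mouse cells came to 2 and 4 counts in the 10X libraries and 3 counts in 1 cell of Drop-seq at 35 cycles. The antisense gene CCND2-AS1 was listed at 0 in every library.

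The platforms also parted at the CDK partners. CKS1B had 136, 75 and 74 counts in 14, 7 and 7 human cells of Drop-seq and 12 and 17 counts in 3 and 4 cells of 10X, where its share of cells was 0.298% (0.0615 to 0.869) and 0.439% (0.120 to 1.12) against 5.58% (3.08 to 9.18), 4.22% (1.71 to 8.50) and 4.24% (1.72 to 8.55). CKS2 had 17, 5 and 15 counts in Drop-seq and was listed at 0 in 10X. CDKN3, a phosphatase of CDKs, had 76 counts in 6 cells at 25 cycles, 0 at 30 and 15 counts in 1 cell at 35, and 0 in 10X.

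The mitotic cyclins were nearly empty. CCNB1, the cyclin of CDK1 at entry into mitosis, was the 1 member with no count in a human cell of any library, with 23, 5, 3, 2 and 2 counts in the remaining barcodes of the 5 libraries. CCNB2 had 2 counts in 1 cell of each 10X library. CCNA2, the cyclin of S phase and G2, had 10, 13 and 24 counts in Drop-seq, against 2 and 2 in 10X. CDK1 was in all 5 libraries with 10, 12 and 13 counts in Drop-seq, against 8 and 24 in 10X, while CDK2 had 3 counts in Drop-seq at 25 cycles only and CDK4 had at most 7.

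Of the genes of mitosis, MKI67, the proliferation marker Ki-67, had 10, 8 and 14 counts in 3, 1 and 2 human cells of Drop-seq and 37 and 56 counts in 11 and 13 cells of 10X. TOP2A, the topoisomerase that untangles sister chromatids, had 2, 6 and 6 counts in Drop-seq, against 6 and 16 in 10X. CENPF, a kinetochore protein, had 6, 3 and 6 counts in Drop-seq, against 8 and 26 in 10X. BIRC5 (survivin), a subunit of the chromosomal passenger complex, had 37, 20 and 30 counts in Drop-seq, against 6 and 16 in 10X. AURKA, the kinase of centrosome and spindle, had 42 and 15 counts in the Drop-seq libraries of 25 and 30 cycles and was listed at 0 in the human cells of the other libraries. The same stored barcode, classed as a mouse cell, held 13, 10 and 22 AURKA counts in Drop-seq, where human counts were 5.99%, 2.67% and 5.14% of its total. AURKB, TPX2 and PLK1 had at most 9 counts in any library.

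The APC/C group took at most 0.0428% of human counts in any library. UBE2C and UBE2S, the ubiquitin-conjugating enzymes of the complex, had at most 14 and 20 counts, CDC20, its activator, had 4 counts in 1 cell of 10X at 35 cycles, and PTTG1, securin, had 4, 0 and 35 counts in Drop-seq and 0 in 10X. No gene of the 4 was listed in a human cell of Drop-seq at 30 cycles.

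By summed counts, tubulins and stathmin formed the largest group by share except in 10X at 30 cycles. With 1 transcript per gene and cell this did not hold in 10X at 35 cycles either, where CCND2 alone had 341 counts. STMN1 then had 206 counts, TUBA1B 26, TUBB4B 12 and TUBB 2. STMN1, which destabilises microtubules, had 424, 153 and 191 counts in 30, 9 and 10 human cells of Drop-seq and 277 and 596 counts in 44 and 88 cells of 10X. TUBA1B had 249, 103 and 218 counts in 19, 7 and 12 cells of Drop-seq and 30 and 73 counts in 5 and 12 cells of 10X. TUBB, a beta tubulin, had 48, 15 and 33 counts in Drop-seq, against 3 and 2 in 10X. Its relative TUBB4B was listed at 0 in Drop-seq human cells and had 6 and 24 counts in 10X. TUBA1C, near-identical to TUBA1B, had 12 counts in 10X at 30 cycles only.

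H2AZ1, the histone variant H2A.Z, had 328, 201 and 211 counts in 39, 19 and 17 human cells of Drop-seq, or 15.5% (11.3 to 20.6), 11.4% (7.03 to 17.3) and 10.3% (6.12 to 16.0) of the cells. In 10X it had 106 counts in 23 cells (2.29%, 1.45 to 3.41) and 240 counts in 48 cells (5.27%, 3.91 to 6.93). Its share of cells in Drop-seq was above both 10X values at 25 and 30 cycles, and at 35 cycles its interval overlapped that of 10X at 35 cycles. Leaving out values below 3, the Drop-seq shares were 6.77% (3.99 to 10.6), 11.4% and 10.3%, and those of 10X were 0.398% (0.108 to 1.01) and 1.43% (0.762 to 2.43), with no overlap.

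**Figure D3:**
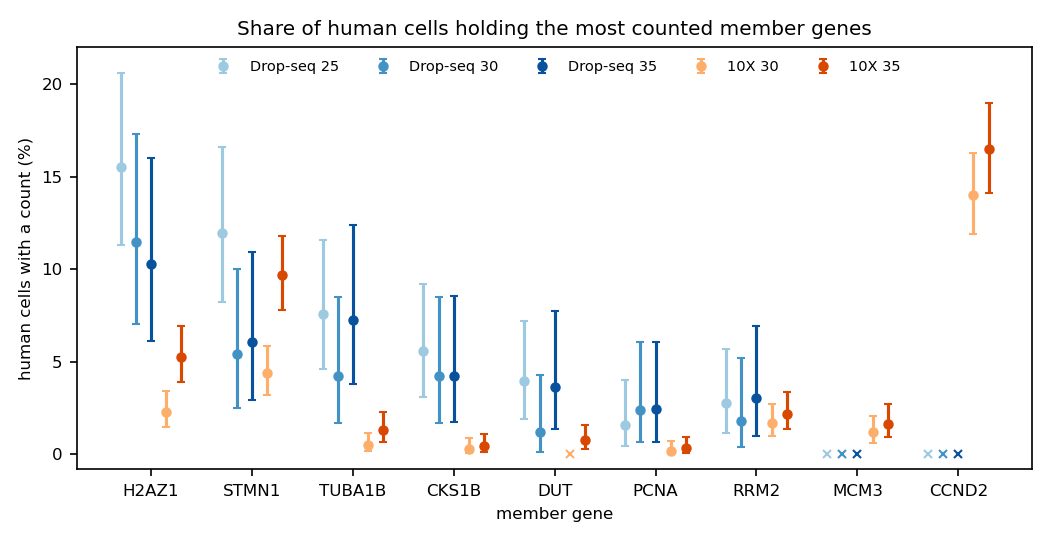
Points give the share of human cells with a count (%, vertical axis) for the 9 members with at least 100 counts over a pair of libraries, with 95% intervals of counting error, in blue for Drop-seq and orange for 10X; crosses mark genes listed at 0. CCND2 reaches 14.0% and 16.5% in 10X and is listed at 0 in the human cells of Drop-seq, while H2AZ1 is higher in Drop-seq.

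The effect of 5 further PCR cycles was asked within each platform. Genes with at least 100 counts over both libraries of a pair were compared by CPM, counts scaled to the human total of each library's human cells, and a change of at least 2-fold was called by size, without a test. In 10X, 421 genes passed the minimum, of which 44 (10.5%) were 2-fold higher and 85 (20.2%) 2-fold lower at 35 cycles, with a median log2 ratio of -0.19. Of the 6 members that passed, 0 were called in either direction, and the other 38 members were under the minimum, 8 of them with no count.

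H2AZ1 rose from 654.5 to 1204.2 CPM, a log2 ratio of 0.88 (0.54 to 1.22), short of 2-fold. STMN1 went from 1710.3 to 2990.3 CPM (log2 ratio 0.80, 0.60 to 1.02) and TUBA1B from 185.2 to 366.3 CPM (0.97, 0.35 to 1.65). Scaled by the median of ratios over genes instead of the total, these log2 ratios were 1.06, 0.99 and 1.16, so that H2AZ1 and TUBA1B passed 2-fold, and the split of all calls changed from 44 higher and 85 lower to 61 and 61. CCND2 had 2130.1 and 1710.9 CPM (-0.32, -0.54 to -0.10), and with values below 3 left out its log2 ratio was -1.26, a call as lower, beside H2AZ1 as higher. STMN1 was at 0.54 with values below 3 left out and at 0.58 in barcodes that were human cells in both libraries, both under its interval. RRM2 had 697.7 and 612.1 CPM (-0.19, -0.57 to 0.19) and MCM3 512.5 and 536.9 CPM (0.07, -0.36 to 0.50). With 1 transcript per gene and cell the log2 ratios of H2AZ1, STMN1 and TUBA1B were 0.94, 0.83 and 1.09. The interval of TUBA1B then ran from 0.04 to 2.35.

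In Drop-seq, 321 genes passed the minimum, of which 3 (0.935%) were 2-fold higher and 3 (0.935%) 2-fold lower at 35 cycles, with a median log2 ratio of -0.06. Of the 7 members that passed, 1 was called, and 37 were under the minimum, 16 of them with no count. The called member was DUT, which went from 417.0 to 1005.4 CPM, a log2 ratio of 1.25 (0.65 to 1.93). Its 28 counts stood in 2 human cells at 30 cycles and its 94 counts in 6 cells at 35 cycles. Of the barcodes that were human cells in both libraries, 2 held DUT at 30 cycles and 5 at 35 cycles, with both of the first among the second. Counted once per gene and cell, DUT had 14 and 43 counts and a log2 ratio of 1.11 (0.25 to 2.13), under the minimum for a call.

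The remaining 6 stayed within 2-fold. TUBA1B had 1534.0 and 2331.6 CPM (log2 ratio 0.60, 0.26 to 0.96). H2AZ1 had 2993.6 and 2256.7 CPM (-0.41, -0.69 to -0.12) and CKS1B 1117.0 and 791.5 CPM (-0.50, -0.98 to -0.01). The intervals of PCNA (-0.78 to 0.40), RRM2 (-0.67 to 0.28) and STMN1 (-0.47 to 0.16) took in 0. In barcodes that were human cells in both libraries, CKS1B was at -0.02, TUBA1B at 0.32, H2AZ1 at -0.34 and STMN1 at -0.22. RRM2 turned there from -0.20 to 0.33. With 1 transcript per gene and cell, the intervals of CKS1B (-1.06 to 0.37) and TUBA1B (-0.03 to 1.18) took in 0. That of H2AZ1 (-0.90 to -0.04) did not.

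**Figure D4:**
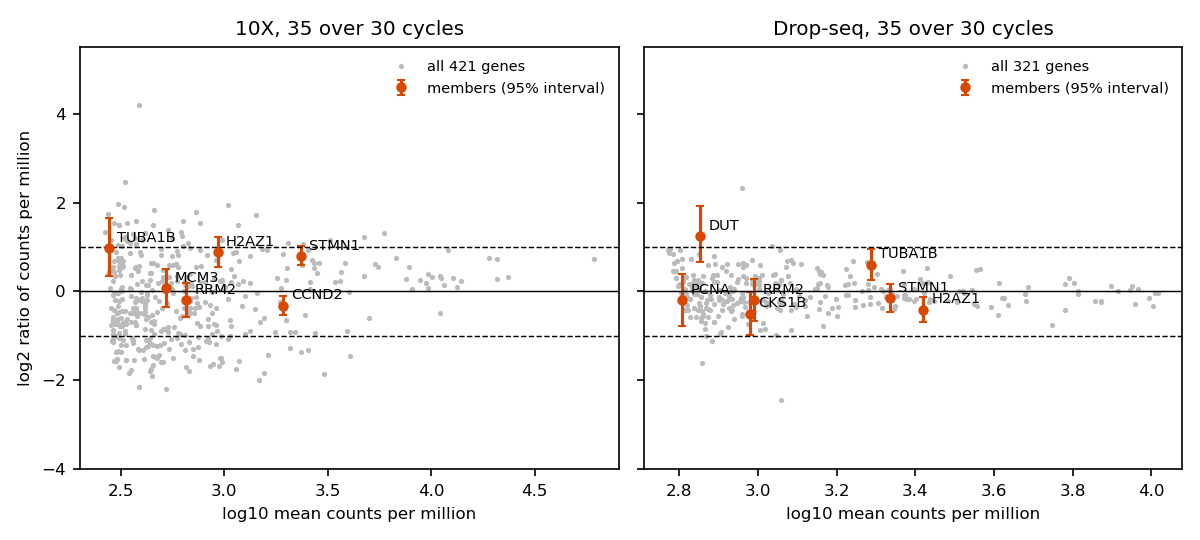
Grey points are all genes with at least 100 counts over the pair, orange points the members with their 95% counting intervals, by log10 mean CPM (horizontal) and log2 ratio of CPM at 35 over 30 cycles (vertical), for 10X on the left and Drop-seq on the right; dashed lines mark 2-fold. Genes scatter more widely in 10X, where H2AZ1, STMN1 and TUBA1B lie just below the upper line, and DUT is the 1 member beyond it, in Drop-seq.

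By role, the summed members had a log2 ratio of 0.30 (0.19 to 0.40) in 10X and 0.07 (-0.06 to 0.20) in Drop-seq at 35 against 30 cycles. Without STMN1, H2AZ1 and TUBA1B the 10X share was 0.485% at 30 cycles and 0.454% at 35, and for all members with values below 3 left out it was 0.672% and 0.628%. In 10X the ratio was 0.78 (0.59 to 0.98) for tubulins and stathmin, 0.70 (0.27 to 1.15) for mitosis, -0.05 (-0.37 to 0.28) for nucleotide supply, -0.23 (-0.44 to -0.02) for cyclins and kinases and -0.30 (-0.66 to 0.06) for the helicase group. In Drop-seq it was 0.23 (0.01 to 0.45) for tubulins and stathmin, -0.60 (-1.15 to -0.05) for mitosis, 0.47 (0.13 to 0.82) for nucleotide supply and -0.01 (-0.37 to 0.36) for cyclins and kinases. Nucleotide supply in 10X moved further with values below 3 left out, from 0.0687% to 0.0296% of human counts, on 33 and 25 counts. In Drop-seq, DUT held 28 of the 107 counts of this group at 30 cycles and 94 of 207 at 35. RRM2 had 70 and 85 counts there, and RRM1 had 9 and 28. Mitosis genes lay on opposite sides of 0 on the 2 platforms, and that difference was not tested. In Drop-seq they rest on 61 counts in 7 cells and 56 counts in 5 cells, and in 10X on 67 counts in 20 cells and 134 in 37. In Drop-seq, AURKA (15 counts) and AURKB (9 counts) each stood in 1 cell at 30 cycles and were listed at 0 at 35. MKI67, CENPF and BIRC5 had more counts at 35 cycles there, and TOP2A had 6 at both. Of the cyclins and kinases in 10X, CCND2 held 345 of 369 counts at 30 cycles and 341 of 388 at 35. CDK1 (8 and 24 counts), CKS1B (12 and 17) and CDK4 (0 and 2) had more counts at 35 cycles in 10X. CCNA2 and CCNB2 had 2 at both.

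Between platforms at 30 cycles, with values below 3 left out, 153 genes passed the minimum, of which 92 (60.1%) were 2-fold higher and 46 (30.1%) 2-fold lower in Drop-seq. With the values as deposited the split was turned, to 108 higher and 147 lower of 309 genes. Nearly every gene was called on this comparison, so the members are given as values. The limit at 3 left 48043 of the 161961 human counts of 10X and all 67144 of Drop-seq. H2AZ1 had 499.6 CPM in 10X and 2993.6 in Drop-seq, a log2 ratio of 2.56 (1.97 to 3.26), and it stayed between 1.98 and 3.04 under the alternatives. CCND2 had 143 counts in 10X and was listed at 0 in Drop-seq, and TUBA1B had 103 counts in Drop-seq and was listed at 0 in 10X at this limit, where its deposited values of 2 gave 30 counts in all. RRM2 (0.59, -0.01 to 1.25) and STMN1 (0.43, 0.04 to 0.84) were within 2-fold, and scaled by the median of ratios they were at 0.02 and -0.14.

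With counts at 3 or more, 5 members were seen in a 10X library only (MCM3, MCM6, CCND2, UBE2S and TUBB4B) and 17 in a Drop-seq library only, of 33 members listed at that limit. Over all 5353 human genes listed there, 30.4% were in 10X only and 52.0% in Drop-seq only. As deposited, 10 and 7 of 43 members were on 1 platform only, against 56.8% and 14.8% of 12181 human genes, and 15 members were in all 5 libraries. The 10 seen only in 10X human cells were MCM3, MCM6, TK1, CCNB2, CCND2, TPX2, PLK1, CDC20, TUBA1C and TUBB4B, and apart from CCND2 and MCM3 none had more than 24 counts in a library.

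Because the libraries of a platform shared barcodes, the same cell could be looked at again after more cycles. In the 722 shared human barcodes of 10X there were 267 member-and-cell pairs at 30 cycles, of which 87 (32.6%, 27.0 to 38.6) were found again at 35 cycles. For all human genes the share was 29.3% (28.9 to 29.8). Of the 359 member pairs at 35 cycles, 24.2% (19.9 to 29.0) had been listed at 30 cycles, against 26.4% for all genes. In Drop-seq 55 of 67 member pairs at 30 cycles (82.1%, 70.8 to 90.4) were found again at 35 cycles, against 86.6% of all genes, and 64.7% of the 85 pairs at 35 cycles had been listed at 30. The shares for all genes lay within the members' intervals on both platforms. With values below 3 left out this did not hold in 10X, where 15 of 60 member pairs at 30 cycles (25.0%, 14.7 to 37.9) were found again against 49.6% for all genes, and no test was made of that difference.

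For single members the rates of repeat detection mostly rest on few cells. In 10X, 49 of the 116 shared cells with CCND2 at 30 cycles held it at 35 cycles (42.2%, 33.1 to 51.8), as did 23 of 39 with STMN1 (59.0%, 42.1 to 74.4), 6 of 19 with H2AZ1 and 3 of 15 with RRM2. Only 1 of 12 cells with MCM3 (0.211% to 38.5%) and 0 of 4 with TUBA1B (0% to 60.2%) did so. The intervals of H2AZ1 (12.6% to 56.6%) and RRM2 (4.33% to 48.1%) were also wide, and only those of STMN1 and MCM3 did not overlap. With values below 3 left out, 9 of 37 cells with CCND2 (24.3%) and 3 of 10 with STMN1 (30.0%) held the gene again. In Drop-seq, 13 of 18 cells with H2AZ1, 7 of 9 with STMN1, 7 of 7 with TUBA1B and 5 of 5 with CKS1B held the gene at both cycle numbers.

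**Figure D5:**
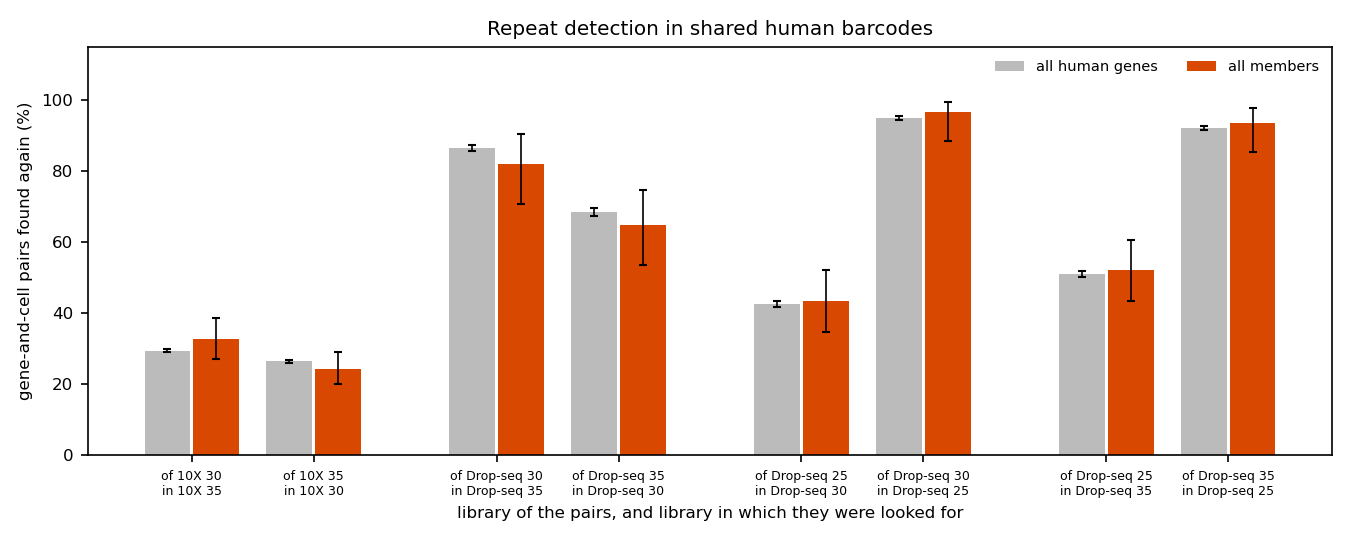
Bars give the share (%) of gene-and-cell pairs in one library that were found again in the same stored barcode of another library of that platform, for all human genes (grey) and members (orange), with 95% intervals of counting error. As deposited, the members' intervals take in the shares for all genes, and the members lie at 24.2% to 32.6% in the 10X pair and 43.3% to 96.7% in the Drop-seq pairs.

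Replication and mitosis genes were next read in the same cells, after thinning to 100 human counts. Of 15 replication genes, at least 1 was held by 9.96%, 6.02% and 9.09% of human cells in Drop-seq, against 5.96% and 5.93% in 10X. The 19 genes taken for mitosis were those of the mitosis and APC/C groups with CDK1, CCNA2, CCNB1, CCNB2, CKS1B, CKS2 and CDKN3. Of 39 10X cells with a replication gene at 30 cycles 1 also held a mitosis gene (2.56%, 0.0649 to 13.5), against 3.58% (2.26 to 5.37) of the cells without a replication gene. At 35 cycles it was 4 of 54 (7.41%, 2.06 to 17.9) against 4.32% (3.06 to 5.90). In Drop-seq it was 3 of 25, 0 of 10 and 2 of 15 at 25, 30 and 35 cycles, against 24 of 226, 10 of 156 and 12 of 150 of the cells without. The intervals overlapped in every library, so that neither joint nor separate listing was detectable at this depth.

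A wider list of 78 other cell cycle genes was read beside the members. It had 38, 30 and 27 genes listed in Drop-seq, against 48 and 52 in 10X, with 0.742%, 0.986% and 0.978% of human counts in Drop-seq, against 0.356% and 0.319% in 10X. With values below 3 left out the order of the numbers of genes turned, to 23, 30 and 27 in Drop-seq against 4 and 10 in 10X, where they took 0.0562% and 0.0875% of human counts. Among the most counted were DNMT1, the maintenance methyltransferase, with 78, 20 and 142 counts in Drop-seq, against 41 and 53 in 10X, and SMC4, a condensin subunit, with 40, 21 and 40 in Drop-seq, against 59 and 86 in 10X.

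By type of transcript, protein coding transcripts took 84.3%, 84.3% and 79.2% of member counts in Drop-seq, and 92.1% and 92.4% in 10X. Of all human counts in human cells they took 84780 of 115245, 49762 of 67144 and 68482 of 93499 in Drop-seq. In 10X they took 113393 of 161961 and 142123 of 199308. Retained-intron transcripts took 8.83%, 9.60% and 11.4% in Drop-seq, against 4.92% and 4.63% in 10X, and they belonged mainly to TUBA1B, H2AZ1 and RRM2. For human transcripts in general the shares were at most 6.81% in Drop-seq, against 9.19% and 7.20% in 10X. These were taken over a different total than the human counts just given. Over that total, protein coding transcripts took 79.6%, 80.1% and 79.5% in Drop-seq, against 75.1% and 76.2% in 10X. The members' protein coding share of 79.2% at 35 cycles of Drop-seq was not above this. In retained introns the members lay above the general shares in Drop-seq and below them in 10X. Since a molecule may be counted under several transcripts of a gene, these shares describe the listed transcripts and not molecules.

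Finally, the promoters of the members were searched for the words of the factors named above. RefSeq promoter windows on GRCh38.p14, from 250 bases before to 50 bases after the start, were given for 36 of the 44 members and 27305 genes in all. E2F words (TTTCCCGC, TTTCGCGC, TTTGCCGC or TTTGGCGC on either strand, which can overlap each other) stood in the windows of 11 of 36 members (30.6%) and 3.99% of all genes, and in all 5 of the helicase group that had a window. CHR words (TTTGAA or TTCGAA on either strand) stood in 16 of 36 members (44.4%) and 19.5% of all genes, with 4 of 5 in the mitosis group and 0 of 3 in the fork group. A match is a run of letters and no evidence of binding. Stretches of 40 bases from these windows are shown for members whose counts are described above, with the words in capitals, at chr20:5126658-5126697 (PCNA, minus strand), chr15:48332154-48332193 (DUT, plus strand), chr6:52284893-52284932 (MCM3, minus strand) and chr1:25906434-25906473 (STMN1, minus strand) for E2F and at chr1:154974634-154974673 (CKS1B, plus strand) and chr10:128126430-128126469 (MKI67, minus strand) for CHR.
PCNA: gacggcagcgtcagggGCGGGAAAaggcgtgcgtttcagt
DUT: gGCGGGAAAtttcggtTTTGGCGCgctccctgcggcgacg
MCM3: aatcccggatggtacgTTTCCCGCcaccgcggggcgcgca
STMN1: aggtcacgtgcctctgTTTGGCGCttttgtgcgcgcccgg
CKS1B: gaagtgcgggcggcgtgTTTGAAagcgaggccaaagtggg
MKI67: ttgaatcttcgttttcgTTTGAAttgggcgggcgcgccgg
Words of either kind were found in members with many counts (STMN1, PCNA and DUT) and in members with few (MCM6, MCM7 and GINS2). Neither kind stood in the windows of FEN1, RRM2, TK1, CDK4, CCNA2, CCNB1, CCND3, AURKB, UBE2S, PTTG1, TUBA1B and TUBB, of which RRM2 and TUBA1B had many counts.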

How the data were processed

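Each deposited file listed UMI counts, as whole numbers, by barcode and transcript; the authors made them from nanopore reads mapped to human (hg38) and mouse transcripts, with UMIs grouped by UMI-tools or, for homotrimer UMIs, by a set cover. The method behind the Drop-seq files, why the smallest stored values differ (1, 3 and 2) and why all barcodes have 10 bases are not given in the sources used here. The labels and the study's single-cell methods name JJN3. Its culture section lists Jurkat, a T cell line, and not JJN3, and a figure legend names Jurkat for the 10X mixture, whereas T cell markers were found here in Drop-seq and plasma cell markers in 10X.

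Counts of a gene were summed over its transcripts (GENCODE release 44). Species was read from the identifier prefix. No doublet caller was run. Shares have exact Clopper-Pearson intervals and ratios exact conditional binomial intervals at 95%. Because a molecule may be counted under several transcripts, and cells differ, these are too narrow. Log2 ratios used CPM with a pseudocount of 0.5 counts, a minimum of 100 counts over both libraries and a 2-fold rule of size. With 1 library per group no test was run. The members and lists were chosen with earlier results of these data known. Named were members with 100 counts over a pair, called members, members without counts, the 3 most counted other cell cycle genes, of which 1 is not reported here, and top transcripts. Further members are named to account for all of them. Python 3.11.15, numpy 2.4.6, pandas 2.3.3, scipy 1.17.1 and matplotlib 3.10.9 were used. The sample with reads only was not analysed here.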

Additional observations from a re-analysis of the deposited data

Results flagged for a closer look

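H2AZ1 and STMN1 lay on opposite sides of 0 at 35 against 30 cycles on the 2 platforms. The log2 ratio of H2AZ1 was 0.88 in 10X and -0.41 in Drop-seq, and that of STMN1 was 0.80 in 10X and -0.16 in Drop-seq. Each rests on 1 library per cycle number, and the difference between platforms was not tested.

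Member counts also stood in barcodes outside the labelled number of cells, which no comparison used. They came to 8415, 1319 and 2352 counts in Drop-seq at 25, 30 and 35 cycles, or 78.0%, 58.9% and 64.3% of all member counts, and to 583 and 1005 counts in 10X at 30 and 35 cycles, or 30.2% and 32.1%.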

How the results depend on the processing

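Alternatives are given in the order 25, 30 and 35 cycles for Drop-seq and 30 and 35 for 10X, and unless the construction of an alternative shows it, the cause was not tested. The share of human counts taken by members moved to 1.86%, 1.39%, 1.39%, 0.974% and 1.18% with protein coding transcripts only, and to 1.37%, 1.09%, 1.14%, 0.646% and 0.739% with the largest transcript per gene and cell, which was added after seeing the data. With values below 3 left out it was 1.78% at 25 cycles and 0.672% and 0.628% in 10X, and at 25 cycles it was 1.80% at a purity of 95% and 1.71% with the upper 0.5 of the labelled cells. Cells holding a member came to 59.4%, 39.7%, 48.6%, 33.3% and 48.7% of that smaller number of cells, to 29.9%, 20.5%, 27.9%, 18.1% and 23.9% after thinning to 50 counts, to 43.0% at 25 cycles and 32.4% in 10X at 35 cycles after thinning to 100, and to 20.7% at 25 cycles and 5.86% and 8.45% in 10X with values below 3 left out. Member genes listed were then 20 at 25 cycles and 9 and 14 in 10X, and 37 over all barcodes of Drop-seq at 30 cycles. Thinned to 50 counts, 0 of the 25-cycle cells with a replication gene held a mitosis gene.

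Genes called at 35 against 30 cycles in 10X were 129 in all, and they were 300 and 51 with a minimum of 50 and 200 counts, 71 with the largest transcript of each gene, 47 with values below 3 left out and 69 with the largest transcript per gene and cell. MCM4 was a further call, as lower, at a minimum of 50. In Drop-seq the 6 calls became 53 and 0 at these minimums, 3 in barcodes that were human cells in both libraries, and 0 and 0 with the largest transcript of each gene and per gene and cell, and DUT was called only where it kept 100 counts (or 50, at that minimum). Between platforms the 138 calls became 316 and 66 at these minimums, 255 with values as deposited and 70 with the largest transcript per gene and cell. No named member changed sign among those called, while the split of all calls between platforms turned, from 92 higher and 46 lower to 108 and 147 as deposited and 29 and 41 with the largest transcript per gene and cell. In all, 49 summary values moved beyond their interval or by more than 1.5 times, and 40 did not. Of the values of single genes, 79 moved by less than their interval and 5 moved further. No paired analysis was possible because each group held 1 library. The low counts per cell and the smallest stored values limit the genes that can be listed at all.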
